A study of Mus musculus with 2 samples.

Results

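The cytochrome P450 genes outside steroid synthesis are described here in the adrenal gland of the young mouse. They were chosen by name: genes whose symbol has the form of a P450 gene (Cyp, a family number, a subfamily letter and a gene number), without the steroid-synthesis genes Cyp11a1, Cyp11b1, Cyp11b2, Cyp17a1 and Cyp21a1, without Cyp51 and without pseudogenes. The mouse annotation (GENCODE M21, genome build mm10) holds 94 such genes. Reads were assigned to 65 of them in at least 1 library, out of 18580 annotated genes with reads, and 29 had 0 reads in both libraries. The rule itself used no measured level beyond the presence of a read. It and the role, marker and partner lists below were chosen with earlier results of these data known.

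The material was the adrenal gland of male mice of the F1 hybrid strain B6CASTF1/J at 10 days of age, sampled as total RNA in 1 group with 2 biological replicates and no treatment. Long-read RNA sequencing reads cDNA molecules from end to end, so that each read is assigned to 1 transcript model of a gene. Spike-in RNAs had been added, and a starting quantity of 1 µg is given for replicate 2 alone. The labels number the animals in ways that do not match and name 1 donor for both libraries. Whether these are separate animals is thus unclear. Every p value below sets a difference between 2 libraries against counting error alone, not against the spread between animals.

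P450 enzymes are haem proteins that insert an oxygen atom into their substrates with electrons from NADPH. Those of the endoplasmic reticulum receive the electrons from the reductase Por and from cytochrome b5, and those of mitochondria from ferredoxin and its reductase. The steroid-making P450s define the adrenal cortex. The other families act on fatty acids, bile acids, vitamins A and D, and foreign compounds, and their best known site is the liver, with further sites in kidney, lung and gut. Cyp2f2, known from the Clara cells of the lung, also marks the X-zone, the inner layer of the cortex of the young mouse.

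In all of these enzymes a cysteine binds the haem iron, and the bases that encode it lie in a stretch so conserved that copies of recent origin share it. The stretches below show which abundant members can and cannot be told apart there. Each is 30 bases of the coding strand, 5′ to 3′, from the GENCODE M21 transcripts, with the cysteine codon in capitals. They were found by searching the coding sequence of each gene for the P450 haem-binding signature, which 86 of 94 genes and 57 of the 65 genes with reads matched in its strict form.
Cyp2f2: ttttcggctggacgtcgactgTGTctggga
Cyp2e1: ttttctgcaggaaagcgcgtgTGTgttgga
Cyp3a11: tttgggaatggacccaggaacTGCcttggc
Cyp3a44: tttggaattggacccaggaacTGCattggc
Cyp3a41a: tttggaattggacccaggaacTGCattggc
Cyp2d26: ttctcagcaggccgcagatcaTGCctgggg
Cyp2d10: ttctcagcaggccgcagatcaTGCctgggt
Cyp2c68: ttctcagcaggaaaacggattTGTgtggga
Cyp2c69: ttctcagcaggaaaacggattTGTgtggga
Cyp4a10: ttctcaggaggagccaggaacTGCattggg
Cyp4a32: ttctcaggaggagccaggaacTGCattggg
Cyp2f2 and Cyp2e1, the members with most reads, differ at 9 of 30 bases. Cyp3a11 differs from Cyp3a44 at 3, and Cyp2d10 from Cyp2d26 at 1. Cyp3a44 and Cyp3a41a differ at 0, as do Cyp2c68 and Cyp2c69, and Cyp4a10 and Cyp4a32. The stretch of Cyp3a11 lies on chromosome 5 from 145858805 to 145858834 (minus strand), within 1 exon. That of Cyp2f2 lies on chromosome 7 between 27132606 and 27133235 (plus strand) and is interrupted by an intron. Over the whole coding sequence, Cyp3a44 is 94.92% identical to Cyp3a11 and 95.77% to Cyp3a41a. The identity is 96.54% for Cyp2c68 and Cyp2c69 and 97.19% for Cyp4a10 and Cyp4a32, and Cyp3a41a and Cyp3a41b share 99.87%. Reads of these genes could be divided wrongly between the copies, so each group with 90% identity or more was also counted as 1.

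The libraries held 927914 and 1303420 reads on annotated genes in replicates 1 and 2, so that 3 reads, the limit a count of 0 allows, are 3.23 and 2.30 CPM. CPM is reads per 1000000 reads on annotated genes. A long read is counted once whatever the length of its transcript, so CPM was not divided by length. The mean model length of a read was 2335 nt in replicate 1 and 1904 nt in replicate 2. The labelled tissue was matched by its markers: 8 of 8 cortex markers and 5 of 5 chromaffin markers had reads in both replicates. Of 7 kidney markers, 5 were at 0 in both. Markers of other cell types were also present. The 10 hepatocyte markers (Alb, Ahsg, Apoa1, Apoa2, Ttr, Serpina1a, Fgb, Fabp1, Trf and Afp) summed to 17453 and 46884 CPM, and 0 of 10 were at 0.

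The 65 P450 genes took 1300 reads in replicate 1 and 2606 in replicate 2, or 1401 and 1999 CPM (1700 ± 423 CPM, SD, n = 2). Of them, 53 had reads in both replicates, 3 in replicate 1 alone and 9 in replicate 2 alone. The reads were concentrated: the 5 genes with most reads in each replicate held 52.2% and 55.6% of the P450 reads, while the median member had 7 reads in replicate 1 and 17 in replicate 2. A mean of 10 CPM was reached by 34 genes, 25 of which had 10 CPM or more in each replicate. A mean of 100 CPM was reached by Cyp2f2, Cyp2e1, Cyp3a11 and Cyp2d26. Their order depended on the replicate. Cyp2f2 led in replicate 1, with 375 CPM against 127 for Cyp3a11 and 103 for Cyp2e1, and Cyp2e1 led in replicate 2, with 375 CPM against 258 for Cyp3a11 and 197 for Cyp2f2.

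**Figure D1:**
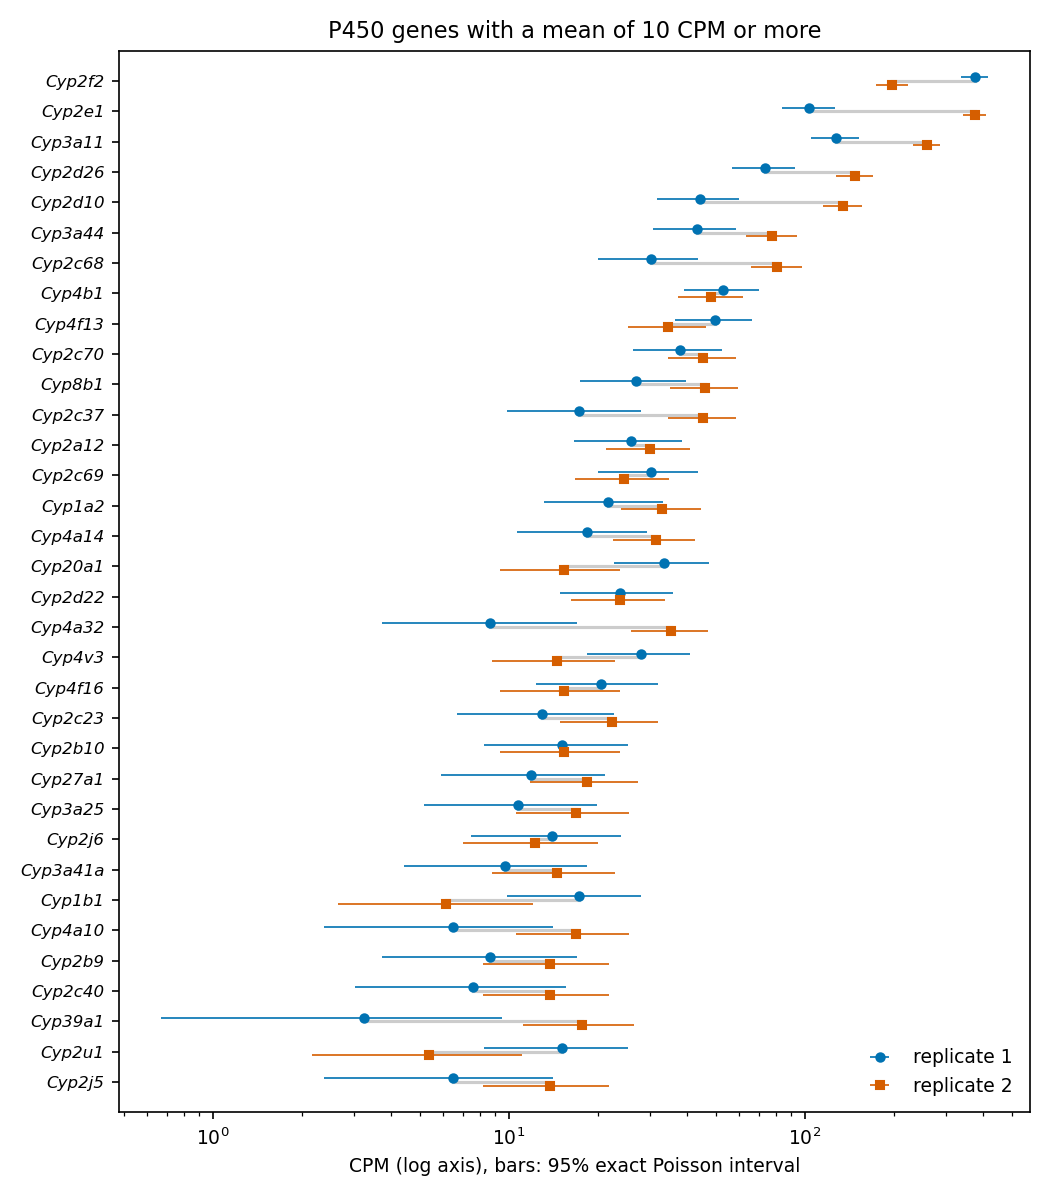
Level of the 34 P450 genes with a mean of 10 CPM or more, in CPM on a log axis, with circles for replicate 1, squares for replicate 2 and bars for 95% exact Poisson intervals, which cover counting error only. Cyp2f2 and Cyp2e1 reach 375 CPM in opposite replicates, and the intervals of most genes under 50 CPM overlap.

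With 1 group, the comparison the design allows is between its replicates. It gives the difference between 2 libraries for each gene, beside counting error alone. Genes with 10 or more reads over both replicates were tested (Fisher's exact test of the reads of the gene against all other reads on annotated genes, two-sided, adjusted over all 11650 such genes). Of the 65 P450 genes, 40 had enough reads for the test and 25 had not. At an adjusted p of 0.05, 13 of the 40 (32.5%) differed between the replicates. Without other scaling this share was near the background of 35.1% of all genes tested. By direction, 11 were higher in replicate 2, where the background is 13.0%, and 2 were lower, where it is 22.2%. The median log2 ratio of replicate 2 over replicate 1, with 0.5 reads added, was 0.62 over the 40 P450 genes and -0.25 over all 11650. With TMM scaling, which adds 0.26 to every log2 ratio, the split over all genes went from 1510 higher and 2581 lower to 1981 higher and 1328 lower. In that setting 15 of the 40 P450 genes passed, 14 higher and 1 lower, beside 3309 of all 11650. DESeq2 size factors gave 15 beside 3311, and removal of the trend of the ratio with transcript length gave 15 beside 2636. The nearness to the background thus depended on the scaling.

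**Figure D2:**
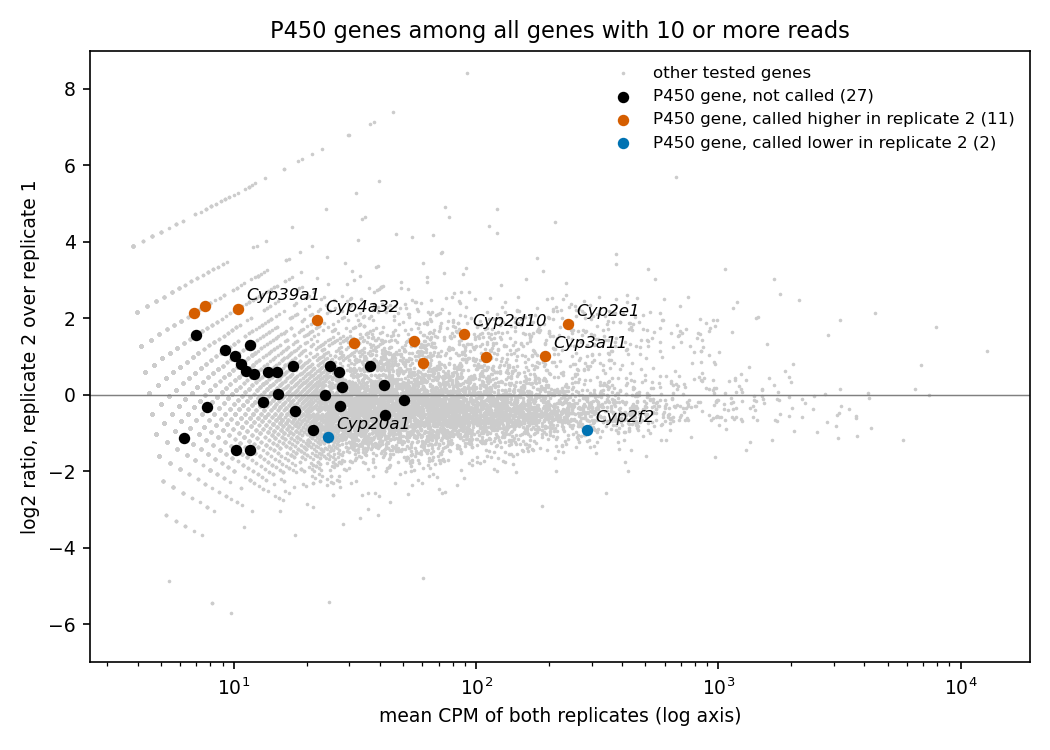
Log2 ratio of replicate 2 over replicate 1 against mean CPM (log axis) for genes with 10 or more reads over both replicates, with P450 genes as large points coloured by the result of Fisher's exact test and other genes in grey. Of the 40 P450 genes, 27 lie above 0 and 13 below, and the 11 called higher include Cyp2e1, Cyp3a11 and Cyp2d10.

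The P450s of drugs and foreign compounds (Cyp2a, Cyp2b, Cyp2d, Cyp2e1, Cyp2f2, Cyp2g1 and Cyp3a) made up the largest group by level, with 878 CPM in replicate 1 and 1340 CPM in replicate 2. Of 29 annotated genes 22 had reads and 14 were tested. Higher in replicate 2 were 6 (Cyp2e1, Cyp3a11, Cyp3a44, Cyp2d26, Cyp2d10 and Cyp2d9), 1 was lower (Cyp2f2), and 7 did not pass. Of all genes tested 13.0% were higher and 22.2% lower, the background for this group and for the marker lists that follow. In the same comparison the hepatocyte markers were higher in replicate 2 in 10 of 10 cases, with a median log2 ratio of 2.05. Of 7 adipocyte markers 5 were higher and 1 was lower, with sums of 8356 and 8721 CPM. Of 6 macrophage markers 1 was higher (4 with TMM scaling), as were 2 of 4 tested markers of capsule and mesenchyme, with 0 lower in both lists. The part of these cell types in the P450 result was not tested. In bulk tissue, fewer cells of a type and less RNA per cell cannot be told apart.

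Cyp2f2, which oxidizes naphthalene and related aromatic compounds, had 348 reads in replicate 1 (375 CPM) and 257 in replicate 2 (197 CPM). It was the member with most reads in replicate 1, and the level in replicate 2 was 0.526 times that in replicate 1 (95% exact interval 0.446 to 0.619, adjusted p = 8.71e-14, Fisher's exact test). Without it the other P450 genes summed to 1026 and 1802 CPM, so it took 26.8% and 9.86% of the P450 reads. Of the X-zone markers, Akr1c18, which breaks down progesterone, had 571 and 379 CPM and was also lower in replicate 2. The other 2, Thrb and Pik3c2g, had 4 and 6 reads and 3 and 1 reads. Of other adrenal cells, most markers of cortex, chromaffin cells and endothelium were lower too. Those of macrophages and of capsule and mesenchyme, given above, were lower in 0 cases. Of the 8 cortex markers 6 were lower in replicate 2, where the background is 22.2%, and 1 was higher, with sums of 31605 and 20036 CPM. Once the trend of the ratio with transcript length was removed, 4 were lower and 2 higher. The chromaffin markers were lower in 4 of 5 cases (11403 and 6053 CPM in sum). The endothelium markers were lower in 4 of 5 cases (454 and 187 CPM in sum), in 2 with TMM scaling and in 1 with the length trend removed. Their part in the result for Cyp2f2 was not tested.

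Cyp2e1, which oxidizes ethanol and other small molecules, went the other way. It had 96 reads in replicate 1 (103 CPM) and 489 in replicate 2 (375 CPM), a ratio of 3.63 (2.91 to 4.56, adjusted p = 2.8e-37, Fisher's exact test).

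The Cyp3a enzymes oxidize a wide range of drugs and steroids. Cyp3a11, the member of this subfamily with most reads, had 118 reads (127 CPM) and 336 reads (258 CPM), a ratio of 2.03 (1.64 to 2.52, adjusted p = 8.52e-11, exact). Cyp3a44 had 40 and 101 reads (43.1 and 77.5 CPM), a ratio of 1.80 (1.23 to 2.66, adjusted p = 0.00633, exact). Both were higher in replicate 2, while Cyp3a41a, a near copy of Cyp3a44, and Cyp3a25, a more distant member, did not pass the test. Cyp3a41a had 9 and 19 reads (9.70 and 14.6 CPM), and Cyp3a25 had 10 and 22 (10.8 and 16.9 CPM). Counted as 1 with Cyp3a16 and the Cyp3a41 copies, Cyp3a11 and Cyp3a44 gave 168 and 462 reads and a ratio of 1.95 with 0.5 reads added (adjusted p = 1.62e-13, exact).

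The Cyp2d enzymes oxidize many basic drugs in other species, and in the mouse they form a cluster of genes on chromosome 15. Cyp2d26 had 68 and 192 reads (73.3 and 147 CPM), a ratio of 2.01 (1.52 to 2.69, adjusted p = 2.82e-06, exact). Cyp2d10 had 41 and 175 reads (44.2 and 134 CPM), a ratio of 3.04 (2.15 to 4.38, adjusted p = 3.74e-11, exact). Cyp2d9 had 2 and 17 reads (2.16 and 13.0 CPM), and its ratio of 6.05 had a wide interval of 1.44 to 54.0 (adjusted p = 0.017, exact). Cyp2d10 and Cyp2d9, which are 92.51% identical, gave 43 and 192 reads together. Cyp2d22 stood apart from these copies, with 22 and 31 reads and nearly equal levels (23.7 and 23.8 CPM, adjusted p = 1.0, exact, interval of the ratio 0.562 to 1.82).

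The Cyp2a and Cyp2b genes on chromosome 7 had fewer reads and did not pass the test. Cyp2a12, a steroid and drug hydroxylase of the liver, had 24 and 39 reads (25.9 and 29.9 CPM). Cyp2b10, the classic target of phenobarbital, had 14 and 20 reads (15.1 and 15.3 CPM), and Cyp2b9 had 8 and 18 (8.62 and 13.8 CPM). The intervals of their ratios all included 1. Below a mean of 10 CPM were 10 genes of the group, of which Cyp2a22 (8 and 9 reads), Cyp2d9 and Cyp2a5 (3 and 6 reads) had the most.

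**Figure D3:**
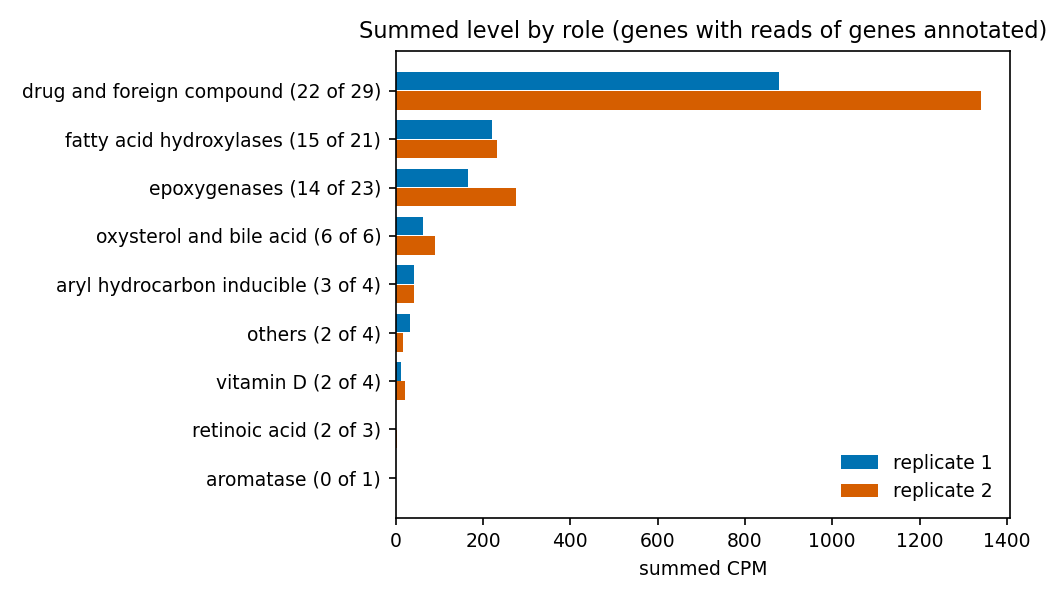
Summed CPM of the P450 genes by role in replicate 1 and replicate 2, with the number of genes with reads and of genes annotated in brackets; Cyp27a1 counts under vitamin D and under oxysterol and bile acid. The group of drugs and foreign compounds stands at 878 and 1340 CPM, and the fatty acid hydroxylases at 221 and 232 CPM.

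The fatty acid hydroxylases (family Cyp4 and Cyp2u1) were the second group in replicate 1 and the third in replicate 2, with 221 and 232 CPM. Of 21 annotated genes 15 had reads and 10 were tested. Of these 2 were higher in replicate 2 (Cyp4a32 and Cyp4a31), 0 were lower and 8 did not pass. The background is 13.0% for higher and 35.1% for either direction. Cyp4b1, which acts on short fatty acids and activates some toxins, had 49 and 63 reads (52.8 and 48.3 CPM). Cyp4f13, a member of the subfamily that inactivates leukotrienes, had 46 and 45 reads (49.6 and 34.5 CPM), and Cyp4f16 had 19 and 20 (20.5 and 15.3 CPM). Cyp4v3, the mouse relative of a human fatty acid hydroxylase of the retina, had 26 and 19 reads (28.0 and 14.6 CPM). None of these 4 genes passed the test. The unadjusted p of Cyp4v3 was 0.0335 (Fisher's exact test) and the adjusted p was 0.084.

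The Cyp4a genes, known as targets of the lipid sensor Ppara, were low in replicate 1. Cyp4a32 had 8 and 46 reads (8.62 and 35.3 CPM), a ratio of 4.09 (1.91 to 10.0, adjusted p = 0.000264, exact). Cyp4a14 had 17 and 41 reads (18.3 and 31.5 CPM), and Cyp4a10 had 6 and 22 (6.47 and 16.9 CPM). These 2 missed the threshold (adjusted p = 0.139 and 0.0854, exact) and passed it with TMM scaling, with DESeq2 size factors and once the trend of the ratio with transcript length was removed. The log2 ratio of Cyp4a14 was 0.76, and it was 0.40 without single-exon fragments (adjusted p = 0.60, exact) and -0.20 with annotated models only (adjusted p = 0.836, exact). Cyp4a31 had 2 and 15 reads (2.16 and 11.5 CPM), a ratio of 5.34 (1.24 to 48.1, adjusted p = 0.0379, exact), a call that ended without single-exon fragments and without a minimum of reads. The copies Cyp4a10, Cyp4a31 and Cyp4a32 together had 16 and 83 reads (17.2 and 63.7 CPM), a ratio of 3.60 with 0.5 reads added (adjusted p = 1.05e-06, exact). The receptor gene Ppara had 12 and 120 reads (12.9 and 92.1 CPM, adjusted p = 4.59e-15, exact) and lay in the same direction. Its part in the result for the Cyp4a genes was not tested. Cyp2u1, which hydroxylates long-chain fatty acids, had 14 and 7 reads (15.1 and 5.37 CPM, adjusted p = 0.0679, exact). The other fatty acid hydroxylases with reads had a mean under 10 CPM, led by Cyp4f15 (5 and 17 reads, not passing), Cyp4a31, Cyp4f14 (6 and 1) and Cyp4f18 (3 and 4).

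The epoxygenases (Cyp2c and Cyp2j), which turn arachidonic acid into epoxides and also oxidize drugs, had 165 and 275 CPM. Of 23 annotated genes 14 had reads and 9 were tested, of which 2 were higher in replicate 2, 0 were lower and 7 did not pass. The background is 13.0% for higher and 35.1% for either direction. Cyp2c68 had 28 and 105 reads (30.2 and 80.6 CPM), a ratio of 2.67 (1.75 to 4.21, adjusted p = 8.42e-06, exact). Cyp2c37 had 16 and 59 reads (17.2 and 45.3 CPM), a ratio of 2.63 (1.49 to 4.89, adjusted p = 0.00188, exact). Cyp2c69, the near copy of Cyp2c68, had 28 and 32 reads (30.2 and 24.6 CPM, interval of the ratio 0.475 to 1.40). The copies thus had equal reads in replicate 1 and unequal reads in replicate 2. Counted with Cyp2c40 they gave 63 and 155 reads (adjusted p = 0.00083, exact).

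Cyp2c70, which makes the muricholic bile acids of the mouse and is counted in this group by its subfamily, had 35 and 59 reads (37.7 and 45.3 CPM). Cyp2c23, an epoxygenase best known from the kidney, had 12 and 29 (12.9 and 22.2 CPM), and Cyp2c40 had 7 and 18 (7.54 and 13.8 CPM). The Cyp2j genes were low. Cyp2j6 had 13 and 16 reads (14.0 and 12.3 CPM), and Cyp2j5, an epoxygenase of kidney and liver, had 6 and 18 (6.47 and 13.8 CPM). None of these 5 genes passed the test. Each of the other 6 epoxygenase genes with reads had a mean under 10 CPM, led by Cyp2c50 (3 and 14 reads) and Cyp2j9 (2 and 4 reads).

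The 6 genes listed as oxysterol and bile acid genes (Cyp7a1, Cyp7b1, Cyp8b1, Cyp27a1, Cyp39a1 and Cyp46a1) all had reads, with 61.4 and 89.0 CPM in sum. This sum leaves out Cyp2c70, given above with its subfamily. Cyp8b1, the sterol 12-hydroxylase that sets the share of cholic acid, had 25 and 60 reads (26.9 and 46.0 CPM, adjusted p = 0.0714, exact). It passed the threshold with the 3 other scalings, with annotated models only and without single-exon fragments. Its annotated transcript has a single exon, so its reads carry no splice junction. Cyp27a1, the mitochondrial sterol 27-hydroxylase, had 11 and 24 reads (11.9 and 18.4 CPM, adjusted p = 0.387, exact). Cyp39a1, an oxysterol 7-hydroxylase, had 3 and 23 reads (3.23 and 17.6 CPM), a ratio of 5.46 (1.65 to 28.4, adjusted p = 0.00535, exact). It was the 1 gene of 4 tested in this group to pass, beside a background of 35.1%, and did not pass with annotated models only.

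Cyp7a1, the rate-limiting enzyme of bile acid synthesis in the liver, had 5 and 2 reads. Cyp7b1, the oxysterol 7-hydroxylase of the alternative pathway, had 8 and 5 (8.62 and 3.84 CPM), and Cyp46a1, the cholesterol 24-hydroxylase of neurons, had 5 and 2. Each had more reads in replicate 1 than in replicate 2, the reverse of Cyp8b1 and Cyp39a1, in numbers too small for a call. Cyp7a1 and Cyp46a1 were not tested, and the adjusted p of Cyp7b1 was 0.297 (exact).

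Of the vitamin D and vitamin A genes, Cyp27a1, given above, had more than 3 reads in a replicate, and the others had 3 or fewer. The 25-hydroxylase Cyp2r1 had 0 and 3 reads, and the activating enzyme Cyp27b1 and the inactivating enzyme Cyp24a1 had 0 in both replicates. Cyp26b1, which clears retinoic acid, had 1 and 3 reads, Cyp26a1 had 0 and 1, and Cyp26c1 had 0 in both. A count of 0 leaves room for a level of 3.23 CPM in the first library and 2.30 CPM in the second. The aromatase gene Cyp19a1, which makes oestrogens, also had 0 reads in both.

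The genes induced through the aryl hydrocarbon receptor had 41.0 and 41.4 CPM in sum. Cyp1a2, a liver enzyme that oxidizes caffeine, had 20 and 43 reads (21.6 and 33.0 CPM, adjusted p = 0.24, exact). Cyp1b1, which acts on oestrogens and foreign compounds outside the liver, had 16 and 8 reads (17.2 and 6.14 CPM, adjusted p = 0.0568, exact). The pair thus lay in opposite directions, and neither passed. Cyp2s1 had 2 and 3 reads, and Cyp1a1, the most inducible gene of the group, had 0 in both. Among the remaining P450s Cyp20a1, an enzyme with no known substrate, had 31 and 20 reads (33.4 and 15.3 CPM). Its ratio of 0.459 (0.248 to 0.832, adjusted p = 0.0221, exact) was lower in replicate 2, a call that ended with TMM scaling, DESeq2 size factors, removal of the trend with length and annotated models only.

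The partners of the P450s did not follow one direction. Of 10 gene symbols listed as electron donors and partners, 9 had reads and were tested, with 3 higher in replicate 2 and 6 lower. The background is 13.0% for higher and 22.2% for lower. Por, the reductase of the reticulum, had 255 and 225 reads (275 and 173 CPM), and Alas1, which starts haem synthesis, had 3143 and 2234 (3387 and 1714 CPM). Both were lower in replicate 2, Por no longer so once the trend with length was removed. Also lower were Cyb5b, the cytochrome b5 of the outer mitochondrial membrane (302 and 167 reads, 325 and 128 CPM), and Cyb5r3, a cytochrome b5 reductase (547 and 129 reads, 589 and 99.0 CPM). Cyb5a, a cytochrome b5, had 129 and 384 reads (139 and 295 CPM), and the ferredoxins Fdx1 (1045 and 1931 reads) and Fdx1l (16 and 66 reads) were also higher. Removal of the trend with length left 0 of these 3 higher and put Fdx1 among the genes lower in replicate 2, with 4 lower in all. The transcripts of the P450 genes described here exceeded those of Por in both replicates, 1401 against 275 CPM and 1999 against 173 CPM. These sums leave out the steroid-synthesis P450s, such as Cyp21a1 with 8043 and 3568 CPM, and include the mitochondrial Cyp27a1.

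Of 20 regulators 16 were tested, with 3 higher, 2 lower and 11 not passing, so that 5 of 16 passed beside a background of 35.1%. The 3 that were higher were the nuclear receptors Nr1i3, Hnf4a and Ppara. Nr1i3, the receptor CAR, had 3 and 32 reads, Hnf4a had 5 and 30, and Ppara had 12 and 120. Other nuclear receptors did not pass: the bile acid receptor Nr1h4 had 15 and 17 reads, its target Nr0b2 had 36 and 56, the oxysterol receptor Nr1h3 had 77 and 93, and the partners Rxra and Rxrb had 38 and 71 and 135 and 155. Nr1i2, the receptor PXR, had 1 and 4 reads and was not tested. Arnt, the partner of the aryl hydrocarbon receptor, was lower with 28 and 19 reads, as was Nr1h2 with 180 and 148, and Ahr had 6 and 5. Arnt did not pass with TMM scaling, and of the 3 higher receptors Ppara alone passed with annotated models only. Rxra passed as higher once the trend with length was removed, and as lower with annotated models only. Of the P450 enzymes whose names have another form, Ptgis, which makes prostacyclin, had 16 and 64 reads and was higher in replicate 2, a call that ended with annotated models only. Cyp51, the lanosterol demethylase, had 53 and 73 reads (57.1 and 56.0 CPM), and Tbxas1, the thromboxane synthase, had 2 in each.

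The reads were then compared by how far they match an annotated transcript. A Known read holds the whole intron chain of an annotated transcript, an ISM read (incomplete splice match) part of one, an NIC read a chain of annotated splice sites in an unannotated combination, and an NNC read an unannotated splice site. Genomic reads lie within the gene without matching these. Of the P450 reads 81.5% were Known in replicate 1 (95% Clopper-Pearson interval 79.2 to 83.5%) and 73.2% in replicate 2 (71.4 to 74.9%). The shares over all annotated genes were 79.8% and 73.9%. Of 16 P450 genes with 20 or more reads in each replicate, 13 had a lower Known share in replicate 2 and 2 passed the test, against a background of 20.3% of 6342 genes (Fisher's exact test, adjusted over these genes). At an unadjusted p under 0.05 there were 4 of the 16 P450 genes and 1876 of the 6342 genes (exact). Of the 6342 genes 4731 had a lower Known share in replicate 2.

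**Figure D4:**
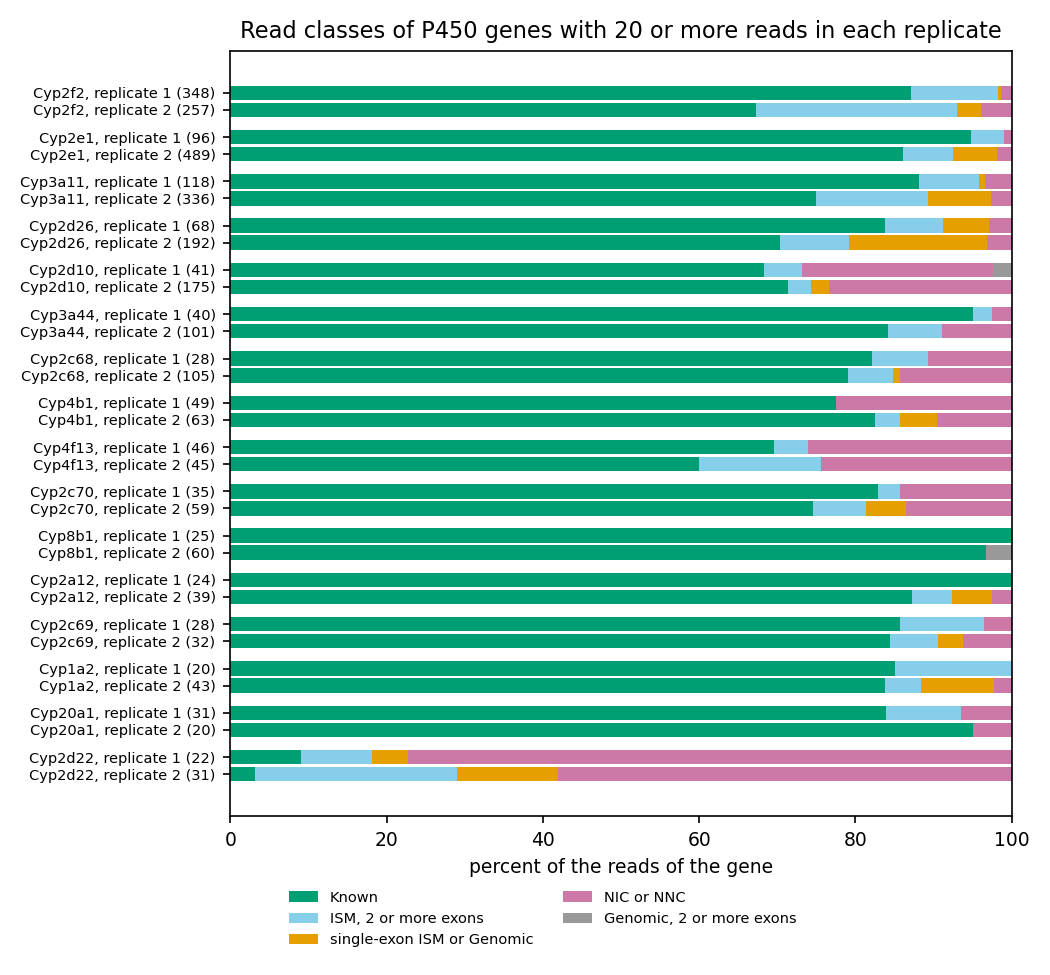
Percent of the reads of each gene in 5 read classes, for the 16 P450 genes with 20 or more reads in each replicate (reads in brackets). The Known share of Cyp2f2 is 87.1% in replicate 1 and 67.3% in replicate 2, and Cyp2d22 has few Known reads in either.

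The genes that passed were Cyp2f2 and Cyp3a11. Known reads of Cyp2f2 were 303 of 348 (87.1%, 83.1 to 90.4%) and 173 of 257 (67.3%, 61.2 to 73.0%), with an adjusted p of 1.91e-07 (exact). The difference lay in spliced ISM reads, 39 and 66 in number, rather than in single-exon fragments (1 and 8). Those that began at exon 2 and ran to exon 10, the last, numbered 8 and 19, and those from exon 4 to exon 10 numbered 6 and 11. Those from exon 7 to exon 10 numbered 13 of the 348 reads of the gene and 10 of the 257, a nearly equal share. Known reads of Cyp3a11 were 104 of 118 (88.1%) and 252 of 336 (75.0%), with an adjusted p of 0.0172 (exact). There the reads of exons 11 to 13 alone numbered 1 and 21, and single-exon fragments 1 and 27. Without single-exon fragments Cyp3a11 no longer passed.

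Single-exon fragments, that is ISM or Genomic models with 1 exon, took 1.69% of the P450 reads in replicate 1 (22 reads) and 6.33% in replicate 2 (165 reads). Over all annotated genes they took 3.62% and 10.1%. Most lay in the last exon of the main transcript, 16 of 22 and 147 of 165. In Cyp2d26 a fragment on chromosome 15 from 82790101 to 82790355 had 4 and 34 reads. In replicate 2 a fragment of the last exon had 26 reads in Cyp2e1, 27 in Cyp3a11 and 13 in Cyp4a14. In replicate 1 all fragments of these genes numbered 0, 1 and 1.

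Annotated isoforms showed little variety. In 4 genes with enough Known reads and 2 or more transcripts, the share of the leading transcript differed in 0 (background 2.04% of 3040 genes, 0 at an unadjusted p under 0.05, Fisher's exact test). Cyp2e1-201 held 91 of 91 and 420 of 421 annotated reads of Cyp2e1, Cyp2d26-201 held 56 of 57 and 133 of 135, and Cyp2d10-201 held 28 of 28 and 123 of 125. Cyp2c70 had a second transcript with 4 and 7 reads, beside 25 and 37 of Cyp2c70-201. In Cyp4f16 the second transcript had 5 and 3 of 10 and 12 annotated reads, and in Cyp2d9 it had 0 and 7 of 2 and 14.

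Unannotated chains (NIC and NNC) were found at 47 of the 65 genes, 194 chains in all. Of these 156 had 1 read, 20 were found in both replicates, and 5 had 3 or more reads in each. These 5 belonged to Cyp2d22, Cyp2d10, Cyp4a32, Cyp2c70 and Cyp27a1. Those of Cyp2d22 and Cyp4a32 carry the class NIC, although 1 and 2 of their splice sites are not in the annotation of the gene. The 20 shared chains held 54 of 113 and 99 of 247 reads of unannotated chains.

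The chain of Cyp2d10 left out exon 5. It had 8 exons and 8 and 31 reads, or 19.5% and 17.7% of the reads of the gene. Of all reads that spanned exons 4 to 6, 8 of 39 (20.5%, 9.30 to 36.5%) and 33 of 168 (19.6%, 13.9 to 26.5%) joined exon 4 to exon 6. The share was thus nearly equal in the replicates while the level of the gene differed. Exon 5 lies on chromosome 15 from 82404428 to 82404604 (minus strand) and has 177 nt, or 59 whole codons (226 to 284), so its absence keeps the reading frame. The join of exons 4 and 6 is annotated in 1 other transcript of the gene, and the chain as a whole in none. The stretches below show the reference sequence with exon 5 in capitals between 30 bases of each neighbour, and the join of exon 4 (lower case) to exon 6 (capitals).
Cyp2d10 with exon 5: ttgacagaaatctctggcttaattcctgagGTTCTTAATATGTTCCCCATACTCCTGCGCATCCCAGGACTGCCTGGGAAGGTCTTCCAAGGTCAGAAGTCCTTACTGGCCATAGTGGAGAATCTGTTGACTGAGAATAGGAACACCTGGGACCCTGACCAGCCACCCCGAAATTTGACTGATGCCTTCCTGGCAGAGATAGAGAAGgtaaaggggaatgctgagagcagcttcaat
Cyp2d10 without exon 5: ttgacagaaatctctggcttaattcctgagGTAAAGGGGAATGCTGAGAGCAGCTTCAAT

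In Cyp2d22 the unannotated chain was the main form. It had 10 and 13 reads, or 45.5% and 41.9% of the reads, while Known reads numbered 2 of 22 and 1 of 31. It differs from Cyp2d22-201 in the end of exon 1, which stops 6 bases earlier, ahead of the coding sequence. Its models also ended early, in both replicates at position 82371615 of chromosome 15 (minus strand), 1088 nt before the annotated end at 82370527. The last exon of the chain thus had 111 nt against 1199 annotated, and the last 65 nt of the coding sequence lay past its end. These are ends of the models, and the ends of single reads were not examined. Another chain of 10 exons, with 2 and 1 reads, reached the annotated end. In Cyp4a32 no read was Known in either replicate. Its main chain, with 5 of 8 and 23 of 46 reads, held the 12 annotated exons and a 13th of 480 nt on chromosome 4 from 115622025 to 115622504, past the annotated end of the gene. Counting annotated transcripts alone would give Cyp2d22 a mean of 1.87 CPM in place of 23.7 and Cyp4a32 a level of 0 in place of 21.96.

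**Figure D5:**
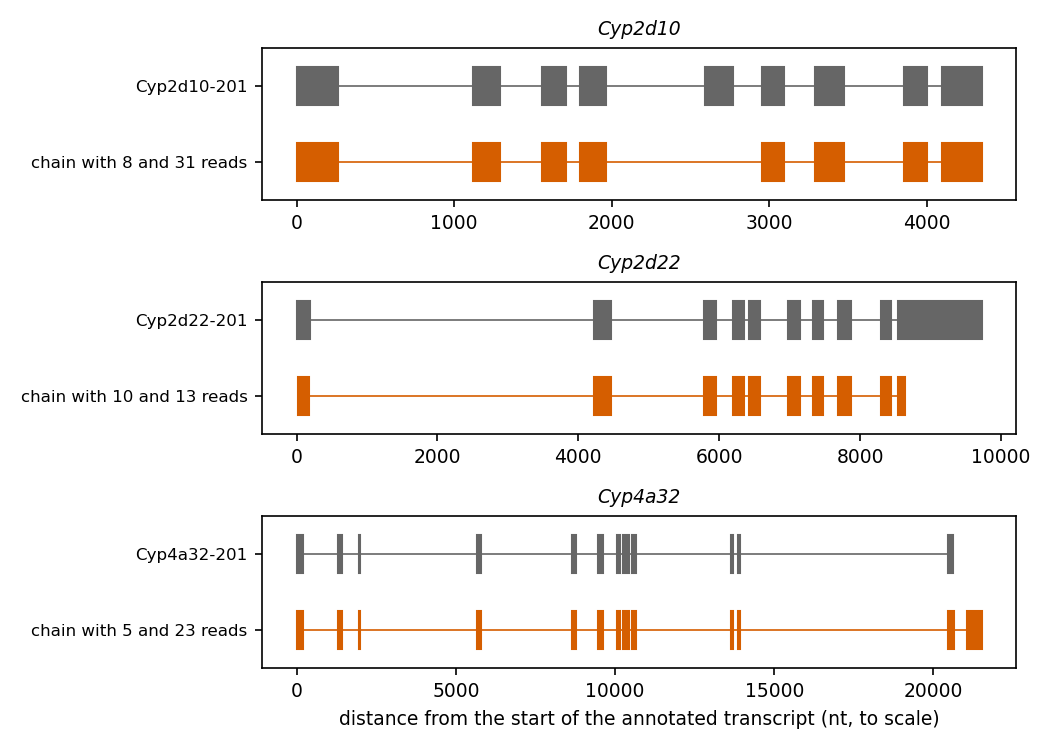
Exons (boxes) of the annotated transcript (grey) and of the main unannotated chain (orange, reads in replicates 1 and 2) of Cyp2d10, Cyp2d22 and Cyp4a32, drawn to scale from the start of the annotated transcript in nt. The chain of Cyp2d10 lacks exon 5 that of Cyp2d22 ends 1088 nt before the annotated transcript, and that of Cyp4a32 has a further exon of 480 nt.

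The other shared chains had fewer reads. In Cyp27a1 a chain with 3 and 5 reads kept the intron of 112 nt between exons 4 and 5, on chromosome 1 from 74735752 to 74735863, where Known reads numbered 4 and 16. In Cyp2c70 a chain of 10 exons, with 4 and 5 reads, ended in a further exon of 69 nt. In Cyp4f13 a chain without exon 2 had 5 and 2 reads, and in Cyp4b1 a chain that began in another first exon, of 418 nt, had 2 and 2.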

How the data were processed

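The deposited tables give counts, the whole number of long reads that the authors assigned to each transcript model of a library, with no normalization. The deposited tables and annotations also give, as other values, exon numbers, model lengths in bases and positions on mm10, per the file headers. The models come from GENCODE M21 and TALON; the version of the aligner is not given in the sources used here. Gene reads were summed over all models, without spike-ins and unannotated loci. With 1 group of 2 libraries no model with biological replicates could be fitted, so genes with 10 or more reads were compared with Fisher's exact test (scipy 1.17.1, Benjamini-Hochberg adjustment over all genes). A test on simulated data preceded its use. TMM factors (edgeR 4.0.16) and DESeq2 1.42.0 size factors served as other scalings. Coding sequences were aligned with edlib. Intervals are at 95% and hold for counting error alone, because PCR copies are not independent molecules. The P450 genes, the role groups and the marker and partner lists were chosen with earlier results of these data known. Members with a mean of 10 CPM or more were described one by one, and up to 4 of the others in a group by mean level.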

Additional observations from a re-analysis of the deposited data

Results flagged for a closer look

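Reads of P450 loci outside the genes described above exceeded 3, the limit a count of 0 allows. The pseudogene Cyp21a2-ps, a copy of the steroid 21-hydroxylase gene, had 218 reads in replicate 1 and 116 in replicate 2, of which 57 and 40 were Known. Cyp2d37-ps had 12 reads and Cyp3a63-ps 4 in replicate 2, with 3 each in replicate 1 and 0 Known reads in either. Reads on the opposite strand of a P450 gene, assigned to unannotated antisense loci, numbered 9 in replicate 1 and 67 in replicate 2. In replicate 2 there were 15 at Cyp2u1, 10 at Cyp2b9, 8 at Cyp2t4, 6 at Cyp1a2, 6 at Cyp4f17 and 4 at Cyp39a1. At Cyp2u1, whose own reads numbered 14 and 7, the antisense locus had 3 reads in replicate 1.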

How the results depend on the processing

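The number of P450 genes lower in replicate 2 was 2, and it was 1 with TMM scaling, with DESeq2 size factors, with the trend with length removed, with annotated models only and with a minimum of 2-fold. The lost gene was Cyp20a1 in the first 4 and Cyp2f2 in the last. The number with a different Known share was 2, and 1 (Cyp2f2) without single-exon fragments. Isoform usage gave 0 genes, and 2 (Cyp2f2 and Cyp3a11) with each ISM model as an isoform. No called P450 gene changed sign. Of the other genes, Fdx1 and the adipocyte marker Fabp4 went from higher to lower in replicate 2 once the trend with length was removed. Rxra, which did not pass without other scaling, was higher with that trend removed and lower with annotated models only. Among P450 genes that did not pass, the log2 ratio of Cyp4b1 went from -0.13 to 0.13 with TMM scaling, and that of Cyp4a14 from 0.76 to -0.20 with annotated models only. Cyp2d22, Cyp2j6 and Cyp4b1 changed sign under all 3 other scalings. Counting near copies together, chosen after seeing the data, gave 10 calls, 8 higher and 2 lower. Leaving out a replicate gave 1401 to 1999 CPM for the sum and 27 to 36 genes at 10 CPM, with no test left. No paired analysis was possible because only 1 group was sampled.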
